A study of Mus musculus with 6 samples.

Results

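T cells of the tibialis anterior muscle (TAM) were the 503 cells, of 11207 in all, that held transcripts of at least 2 of the 3 genes *Cd3d*, *Cd3e*, and *Cd3g* and none of *Cd79a* (B cells), *Csf1r* (monocytes and macrophages), or *Pdgfra* (fibro-adipogenic progenitors, FAPs). The study asked how a lack of thyroid hormone alters the repair of injured muscle, and compared single-cell RNA profiles of the whole muscle between diets and days. All 6 groups were male mice of 3 to 5 months on a B6;129 background with the same cell cycle reporter allele, Gt(ROSA)26Sor<tm1(Fucci2aR)Jkn, in control and hypothyroid mice alike. The 3 hypothyroid groups ate an iodine-deficient diet with 0.15% propylthiouracil (PTU), which blocks hormone synthesis in the thyroid, and the 3 control groups ate a matched diet. In each diet the right TAM was taken uninjured (0 dpi), at 5 days, or at 14 days after injection of cardiotoxin at 50 µg/ml, a snake venom toxin that kills muscle fibres.

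TAM of 3 mice was pooled into 1 library per group (10x V3 chemistry, 3′ ends of transcripts), once red blood cells had been lysed and dead cells depleted. There were thus no replicates, and no difference between groups was tested. Values below compare 6 libraries, and the 95% exact intervals given with them cover counting error only, not the spread between mice. A gene's level is given as CPM, its unique molecular identifiers (UMIs, each a captured RNA molecule) per 1000000 UMIs summed over the T cells of a library.

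T cells recognize antigen through a receptor of paired alpha and beta chains, or gamma and delta chains, which signals through the CD3 proteins. Cells with the coreceptor CD8 can become cytotoxic and kill through granzymes and perforin, whereas cells with CD4 help other immune cells or, as regulatory T cells, restrain them and are known to aid muscle repair. T cells that have not met antigen circulate through lymph nodes under a program that includes *Ccr7*, *Klf2*, *S1pr1*, and *Tcf7*, and this program is shut down when they become effector or tissue-resident cells.

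The label held up against the receptor genes, which the selection did not use: 237 of 255 cells with transcripts of 2 *Cd3* genes (92.9%) and 242 of 248 cells with all 3 (97.6%) also had *Trac*, *Trbc1*, or *Trbc2*. Just inside the limit, 67 of 73 cells with a single UMI of each of 2 *Cd3* genes (91.8%) had a receptor gene, and just outside it 171 of 230 cells with only 1 *Cd3* gene (74.3%) did. Another 25 cells with 2 or 3 *Cd3* genes were left out because they held *Cd79a*, *Csf1r*, or *Pdgfra*, and 25 of them had a receptor gene. The T cells held 1882099 UMIs, from 21647 in the 4 T cells of uninjured hypothyroid muscle to 875127 in the 232 T cells of control muscle at 5 dpi. The median was between 2614.5 and 5348 UMIs per T cell, with single cells between 577 and 26145, whereas cells with *Pdgfra* and without the *Cd3*, *Cd79a*, and *Csf1r* genes (FAP-type cells, 3237 in all) had medians between 4516 and 15306.

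Some files hold more than 1 set of cells. Each file's columns form runs of alphabetically ordered barcodes, and the cells before the first break in that order were taken as the labelled group. In the file of uninjured control muscle, the 1152 cells of the next run had the same barcodes and values as cells of the hypothyroid 14 dpi library, and in the file of uninjured hypothyroid muscle 528 cells repeated cells of the control 5 dpi library. Between first runs, 12 barcodes occurred in 2 libraries, and 0 of these were T cells. The cell numbers stated in the study exceed the first run of every file. They are close to all columns, except in the files of the later injury day, where they exceed these too. Whether the first runs hold the labelled mice was not tested, and values with all columns are given beside the main results. Values with all columns may mix groups, because later runs can hold cells of another library, as in the uninjured files.

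Markers of other cell types were not even across the T cell pools. Of 10 NK cell genes, the summed level was 0 CPM in uninjured control, 655 in control 5 dpi, 106 in control 14 dpi, 139 in uninjured hypothyroid, 238 in hypothyroid 5 dpi, and 45.9 in hypothyroid 14 dpi. In cells that are not T cells the same sum was between 64.6 and 1529 CPM, and it was near that of T cells in control 14 dpi (147 CPM) and uninjured hypothyroid muscle (135 CPM). The defining gene *Ncr1* was at 0 in all libraries but control 5 dpi (6.86 CPM). Of 11 B cell genes, the sum was highest in control 5 dpi at 2889 CPM and next in hypothyroid 5 dpi at 1499 CPM, most of it from *Cd74*, an antigen presentation gene, with 46.2 to 330.2 CPM elsewhere, against 3672 and 2337 CPM in the other cells of the 5 dpi libraries, and *Ms4a1*, *Pax5*, *Ighd*, and *Fcmr* were at 0 in every pool. Of 16 macrophage, monocyte, and dendritic cell genes, the sum was between 46.2 and 1038 CPM, against 1653 to 12392 CPM in cells that are not T cells. The 4 neutrophil genes were at 0 in 4 pools, with 76.6 CPM in control 5 dpi and 2.29 CPM in hypothyroid 14 dpi. Sums over 10 FAP genes were between 0 and 701 CPM, and over 8 endothelial and mural genes between 0 and 732 CPM, both highest in control 14 dpi. The part of these transcripts in the results below was not tested, except where a value without the cells that hold them is given.

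The control 14 dpi pool stood apart in muscle fibre and red blood cell genes. Its 11 myogenic and muscle fibre genes summed to 27470.4 CPM, against 257 to 6606 CPM in the other pools and 13120 CPM in the other cells of that library. Its 5 red blood cell genes summed to 27295 CPM, against 0 to 139 CPM in the other pools and 4438 CPM in the other cells of that library. Of the 1518 UMIs of *Hbb-bs*, a hemoglobin chain, in that pool, 1486 were in a single cell. No gene ratio between diets left its interval when these genes were taken out of the totals.

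T cells made up 1.30% of cells in uninjured control muscle (15 of 1152; interval 0.731 to 2.14), 9.56% at 5 dpi (232 of 2428; 8.41 to 10.8), and 1.64% at 14 dpi (54 of 3294; 1.23 to 2.13). In hypothyroid muscle they made up 0.758% before injury (4 of 528; 0.207 to 1.93), 3.57% at 5 dpi (77 of 2155; 2.83 to 4.45), and 7.33% at 14 dpi (121 of 1650; 6.12 to 8.70). The highest share thus stood at 5 dpi in control muscle and at 14 dpi in hypothyroid muscle, and the intervals of these libraries did not overlap with those of the other diet on the same day. The order held when every cell was thinned to 1000 UMIs before selection, with 0.656%, 3.50%, and 0.699% in control and 0 of 490 cells (which allows a share of up to 0.750%), 1.33%, and 4.47% in hypothyroid muscle.

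**Figure D1:**
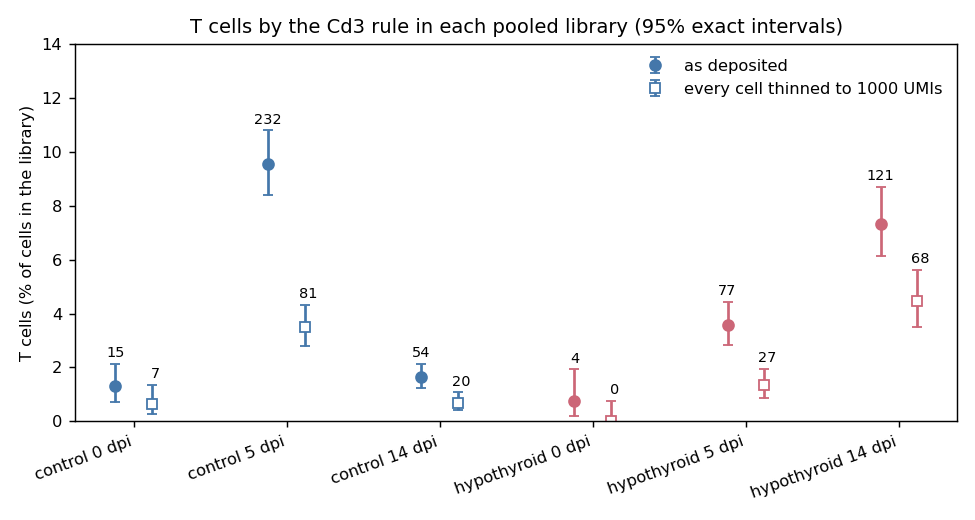
The vertical axis gives T cells as a percentage of the cells of each of the 6 pooled libraries, with 95% exact intervals for counting error and the number of T cells above each point. Filled circles show cells as deposited and open squares cells thinned to 1000 UMIs. In control muscle (blue) the share is highest at 5 dpi (9.56%), and in hypothyroid muscle (red) at 14 dpi (7.33%).

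The share in hypothyroid muscle was 0.374 times that of control at 5 dpi (interval 0.285 to 0.486) and 4.47 times at 14 dpi (3.22 to 6.29), and 0.582 times before injury, where the interval of 0.141 to 1.83 spans 1. Over time, the control share was 7.34 times higher at 5 than at 0 dpi and then 0.172 times that level at 14 dpi (0.125 to 0.232), whereas the hypothyroid share at 14 dpi was 2.05 times that at 5 dpi (1.53 to 2.77). The 5 dpi difference did not appear with all columns of each file, where the ratio was 0.986, and the 14 dpi ratio was then 3.02. Because later runs may hold cells of other groups, these values cannot show whether a difference rests on the choice of columns. When all 3 *Cd3* genes were required, the ratios were 0.537 and 9.68. These shares are of captured cells, so more T cells and fewer cells of other types cannot be told apart.

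Other lymphocytes shared the order of T cells only in part. NK-type cells (573 cells with NK genes and no *Cd3* gene) made up 0.521%, 18%, and 0.395% of control cells at 0, 5, and 14 dpi and 0.758%, 4.83%, and 0.545% of hypothyroid cells. Like T cells, NK-type cells were most frequent at 5 dpi in control muscle and less frequent in hypothyroid muscle on that day. Unlike T cells, they were most frequent at 5 dpi in hypothyroid muscle as well. B-type cells (138) made up 2.86%, 1.57%, and 0.607% in control and 3.60%, 1.07%, and 0.303% in hypothyroid muscle. At 14 dpi the T cells of hypothyroid muscle thus stood at 7.33%, while NK-type and B-type cells were below 1% in both diets.

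T cells were divided by coreceptor transcripts into a CD8 type (*Cd8a* or *Cd8b1* without *Cd4*) and a CD4 type (*Cd4* without these). The CD8 type made up 73 of 232 T cells in control 5 dpi (31.5%; interval 25.5 to 37.9), 25 of 54 in control 14 dpi (46.3%), 43 of 77 in hypothyroid 5 dpi (55.8%), and 91 of 121 in hypothyroid 14 dpi (75.2%; 66.5 to 82.6). In uninjured muscle 7 of 15 control and 2 of 4 hypothyroid T cells were of this type. In FAP-type cells of the same libraries at most 0.578% met the same definition, at a median depth above that of T cells in 5 of 6 libraries.

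The CD8 share among T cells was higher in hypothyroid muscle, by a ratio of 1.77 at 5 dpi (1.19 to 2.62) and 1.62 at 14 dpi (1.03 to 2.64). With all columns the ratios were 1.05 and 1.10. Thinned to 1000 UMIs after selection, 15.3% and 34.0% of control and 34.7% and 52.7% of hypothyroid T cells at 5 and 14 dpi were of the CD8 type, and the 14 dpi ratio of 1.55 then had an interval that spans 1 (0.891 to 2.84). Thinned before selection, the ratios were 2.77 and 1.68. The CD4 type was rarer, with 15 cells (6.47%) and 5 cells (9.26%) in control and 6 (7.79%) and 11 (9.09%) in hypothyroid muscle at 5 and 14 dpi.

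Cells with a UMI of *Gzma*, *Gzmb*, *Gzmk*, or *Prf1*, the granzymes and perforin of cytotoxic granules, made up 32.8% (76 cells) and 24.1% (13) of control T cells and 51.9% (40) and 67.8% (82) of hypothyroid T cells at 5 and 14 dpi. The ratio of these shares was 1.59 at 5 dpi (1.05 to 2.36) and 2.82 at 14 dpi (1.56 to 5.51), and 1.12 and 1.36 with all columns. The ratio at 14 dpi was 2.53 when T cells were thinned after selection and 1.26 when cells were thinned before it. In FAP-type cells the same genes gave shares of 4.44% and 0.557% in control and 3.47% and 0% in hypothyroid muscle.

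*Trdc*, the constant part of the receptor delta chain, was most frequent in T cells of control muscle at 5 dpi, where 56 of 232 held it (24.1%; 18.8 to 30.2), against 6 of 77 in hypothyroid 5 dpi (7.79%), 4 of 54 in control 14 dpi (7.41%), and 2 of 121 in hypothyroid 14 dpi (1.65%). The 5 dpi ratio was 0.323 (0.114 to 0.748), and 0.313 when thinned. *Trdc* was present in 3.75% of FAP-type cells in control and 1.21% in hypothyroid muscle at 5 dpi, so its background was also lower in the hypothyroid library. In control 5 dpi, 60 T cells held a gamma or delta constant gene together with one of the alpha or beta chain, and only 12 (5.17%) held the former alone. Constant genes of the alpha or beta chain were found in 90.5% of T cells of control 5 dpi and in 98.1 to 100% of the T cells of the other libraries.

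**Figure D2:**
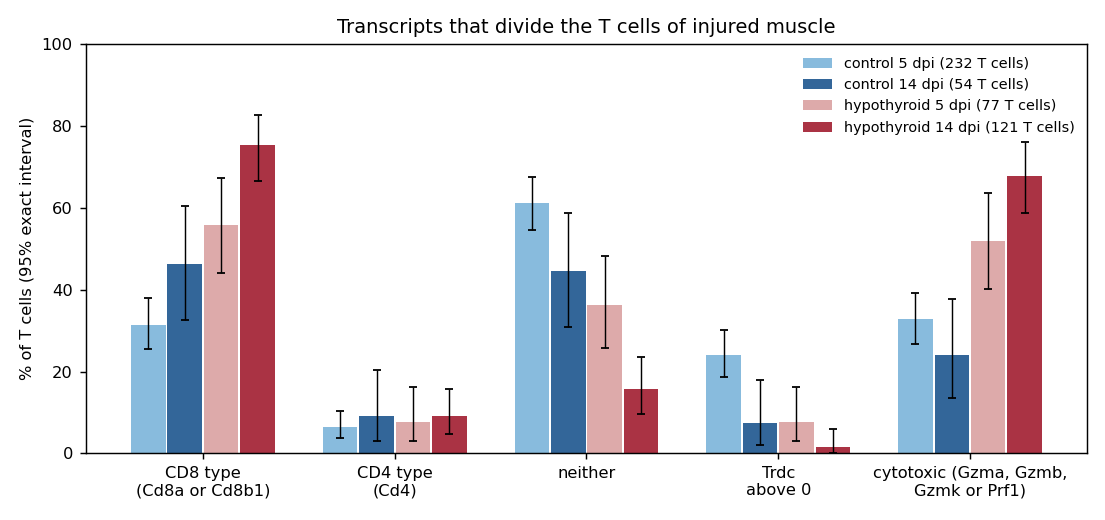
Bars show the percentage of T cells of each injured library (vertical axis from 0) that hold transcripts of the genes named below each group, with 95% exact intervals for counting error. The CD8 type runs from 31.5% in control 5 dpi to 75.2% in hypothyroid 14 dpi, and the share with *Trdc* is highest in control 5 dpi at 24.1%.

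The T cells of uninjured muscle, 15 in control and 4 in hypothyroid, held the genes of circulating T cells at high levels. *Klf2*, a transcription factor that keeps circulating T cells moving (chr8:73072877-73075500, GRCm39), was at 1129 CPM in uninjured control and 1155 CPM in uninjured hypothyroid T cells, and *Satb1*, a chromatin organizer of T cells, at 1551 and 1802 CPM. *Ccr7* and *S1pr1*, which guide cells into and out of lymph nodes, stood at 482 and 617 CPM in uninjured control and 231 and 1016 CPM in uninjured hypothyroid cells. The 10 measured genes of the naive and central memory list summed to 7424 and 7207 CPM in the uninjured libraries and to at most 3377 CPM in any injured library. Cytotoxic list genes differed among themselves in the uninjured pools: *Ccl5* was at 768 and 693 CPM, the killer receptor genes *Klrd1* and *Klrk1* were each at 462 CPM in the hypothyroid pool (10 UMIs in 3 of 4 cells) and at 105 and 30.1 CPM in control, whereas *Gzmk*, *Gzma*, and *Fasl* were at 0 in both uninjured pools, where 3 UMIs would equal 45.2 CPM (control) or 139 CPM (hypothyroid), and *Gzmb* had 0 and 1 UMI.

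**Figure D3:**
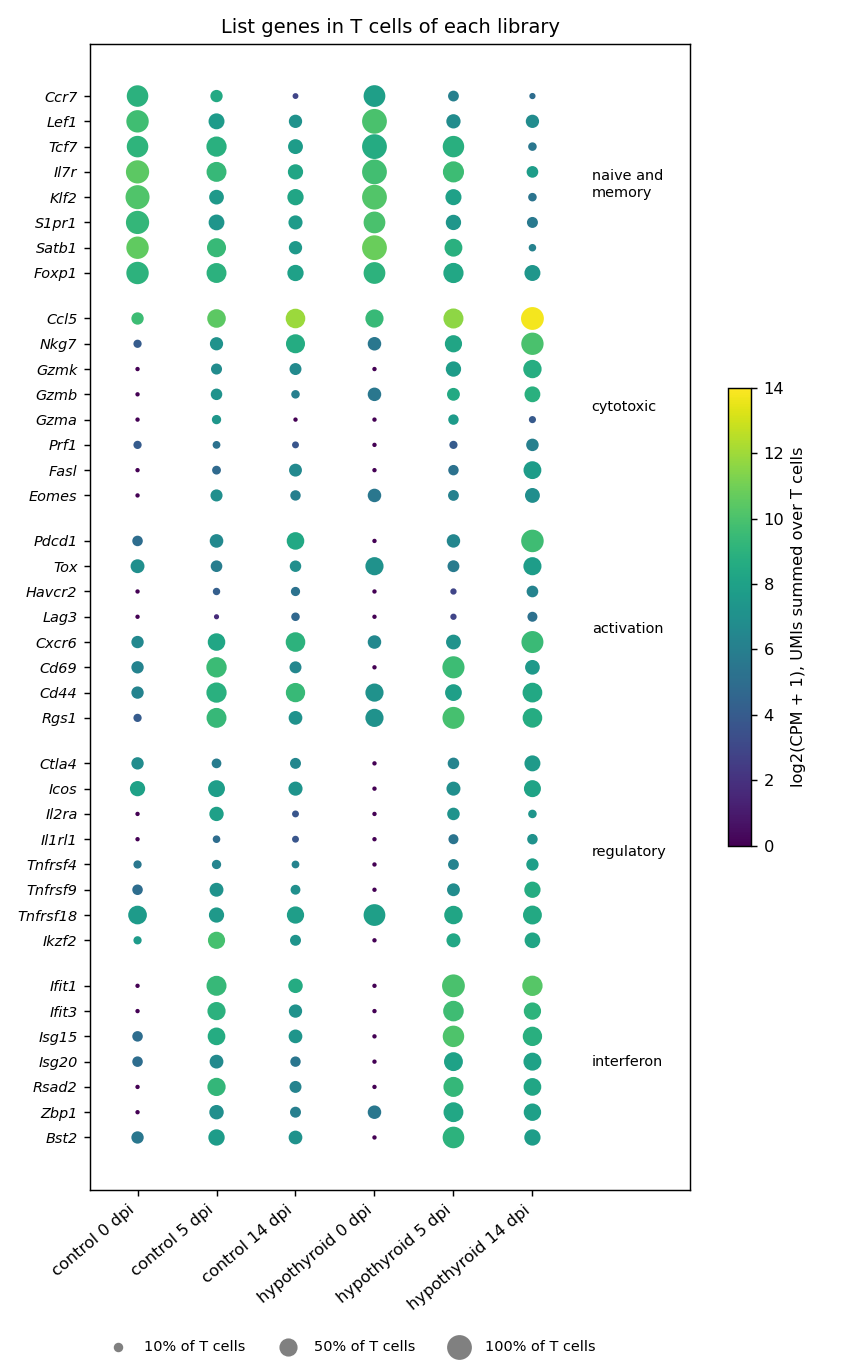
Each row is a gene of 5 lists and each column a library. Dot size gives the percentage of T cells with a UMI and colour the level as log2(CPM + 1) over the summed T cells. *Klf2* is near 1129 and 1155 CPM in the uninjured libraries and at 41.3 CPM in hypothyroid 14 dpi, where *Ccl5* reaches 13670.4 CPM.

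At 14 dpi the T cells of hypothyroid muscle had several cytotoxic, interferon response, and regulatory list genes at higher levels and several circulation genes at lower levels than those of control muscle. Of 3210 genes with at least 30 UMIs over both pools, 8.97% were at least 2-fold higher and 4.83% at least 2-fold lower in the hypothyroid library, with a median log2 ratio of 0.12. The shares with all columns were 2.26% and 2.74%. At least 2-fold higher were 6 of 11 cytotoxic genes (median log2 ratio 1.10), 9 of 12 interferon response genes (1.46), and 5 of 9 genes of the regulatory T cell list (1.14). None of these 3 lists had a gene at least 2-fold lower, and of 7 naive and central memory genes 4 were at least 2-fold lower and 0 higher (median −1.31).

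Among the cytotoxic genes, *Ccl5* (chr11:83416604-83421344), a chemokine that attracts further T cells and macrophages, was at 768, 1426, and 3835 CPM in control T cells at 0, 5, and 14 dpi and at 693, 3158, and 13670.4 CPM in hypothyroid T cells. It was highest in the last library, and the ratio at 14 dpi was 3.56 (3.28 to 3.88). *Ccl5* was 2.12 times higher in FAP-type cells of the same library as well, and with all columns the T cell ratio was 1.39.

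*Gzmb* (chr14:56496295-56499717), which encodes the protease granzyme B, was at 0, 139, and 62.6 CPM in control and 46.2, 347, and 475 CPM in hypothyroid T cells. The ratio at 14 dpi was 7.59 (4.04 to 16.1) from 207 against 10 UMIs, and it was 4.08 when each cell weighed the same, 3.25 with all columns, and 2.50 in thinned cells. It was found in 36.4% of hypothyroid and 7.41% of control T cells at 14 dpi (23.2% and 6% when thinned), against 0% and 0.186% of FAP-type cells, with median depths of 3488 and 2620 UMIs in T cells and 10000 and 6052 UMIs in FAP-type cells. A single cell held 60 of the 207 UMIs of *Gzmb* in hypothyroid T cells and 5 of the 10 in control.

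The granzyme K gene *Gzmk* was at 0, 106, and 100.1 CPM in control and 0, 204, and 422 CPM in hypothyroid T cells, with a ratio at 14 dpi of 4.21 (2.53 to 7.53). *Nkg7*, a granule protein gene of killer lymphocytes, was at 15.1, 138, and 394 CPM in control and 46.2, 303, and 1004 CPM in hypothyroid, a ratio of 2.55 (1.95 to 3.37). Both were highest in hypothyroid 14 dpi, and with all columns the ratios were 1.82 and 1.14. *Fasl*, a death ligand gene, was 2.15 times higher (1.24 to 4). The perforin gene *Prf1* was 5.13 times higher (1.29 to 44.4), from 28 against 2 UMIs. *Gzma* showed another order: its level went from 160 CPM at 5 dpi to 0 at 14 dpi in control and from 195 to 13.8 CPM in hypothyroid T cells. Of the killer receptor genes *Klrd1*, *Klrc1*, and *Klrk1*, 0 were at least 2-fold apart at 14 dpi, and *Klrk1* had a ratio of 0.571 (0.365 to 0.906).

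*Pdcd1* (chr1:93966027-93980278), which encodes the inhibitory receptor PD-1, was at 30.1, 94.8, and 332 CPM in control and 0, 83.6, and 819 CPM in hypothyroid T cells. It was highest at 14 dpi in both diets, with a ratio between diets of 2.47 on that day (1.85 to 3.36) and 1.22 with all columns. At 14 dpi *Pdcd1* was found in 81.0% of hypothyroid and 46.3% of control T cells (51.8% and 34.0% when thinned) and in 0.324% and 0.0929% of FAP-type cells.

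Other genes of the activation and tissue residence list were mixed at 14 dpi, with 4 of 16 at least 2-fold higher and 3 at least 2-fold lower. *Rgs1*, a regulator of chemokine signalling, and *Cd69*, which retains T cells in tissue, were 2.83 (1.81 to 4.64) and 2.09 (1.18 to 4) times higher, and the inhibitory receptor gene *Havcr2* was 2.02 times higher with an interval that spans 1 (0.834 to 5.89). *Tox*, a transcription factor of chronically stimulated T cells, was at 213 CPM in hypothyroid and 119 CPM in control T cells, a ratio of 1.79 (1.09 to 3.11). The residence receptor gene *Cxcr6* was at 715 and 519 CPM, a ratio of 1.38 (1.08 to 1.78), and 0.925 with all columns. Lower in hypothyroid T cells were the adhesion receptor gene *Cd44* (ratio 0.484), *Lgals3*, which encodes galectin-3 (0.481), and *Ly6c2* (0.367), which had a ratio of 1 with all columns.

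Several circulation genes were lower in hypothyroid T cells at 14 dpi. *Ccr7* was not, with 13 UMIs in hypothyroid and 1 in control T cells (29.8 and 6.26 CPM). These are fewer than the 30 UMIs needed for a comparison, and a single hypothyroid cell held 8 of the 13. *Klf2* was at 1129, 184, and 294 CPM in control and 1155, 245, and 41.3 CPM in hypothyroid T cells at 0, 5, and 14 dpi, a ratio at 14 dpi of 0.140 (0.0767 to 0.246). *Klf2* was also lower in FAP-type cells of that library, by a ratio of 0.444, and relative to this the T cell ratio was 0.316. *Tcf7* (chr11:52143198-52174158), the gene of the transcription factor TCF-1 that keeps T cells able to renew, was at 542, 474, and 206 CPM in control and 370 (369.6), 449, and 45.9 CPM in hypothyroid T cells, a ratio of 0.222 (0.121 to 0.399). Its ratio in thinned cells was 0.882.

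*S1pr1*, the receptor through which T cells leave tissue, had a ratio of 0.252 (0.139 to 0.447), and *Satb1* one of 0.404 (0.237 to 0.693). FAP-type ratios of these genes were 0.543 and 0.515. With all columns the ratios of *Klf2*, *Tcf7*, *S1pr1*, and *Satb1* were 0.235, 0.332, 0.370, and 0.509. Summed over the list, 14 dpi control T cells held 1652 CPM and hypothyroid T cells 766 CPM, a ratio of 0.464, against 0.782 in FAP-type cells.

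**Figure D4:**
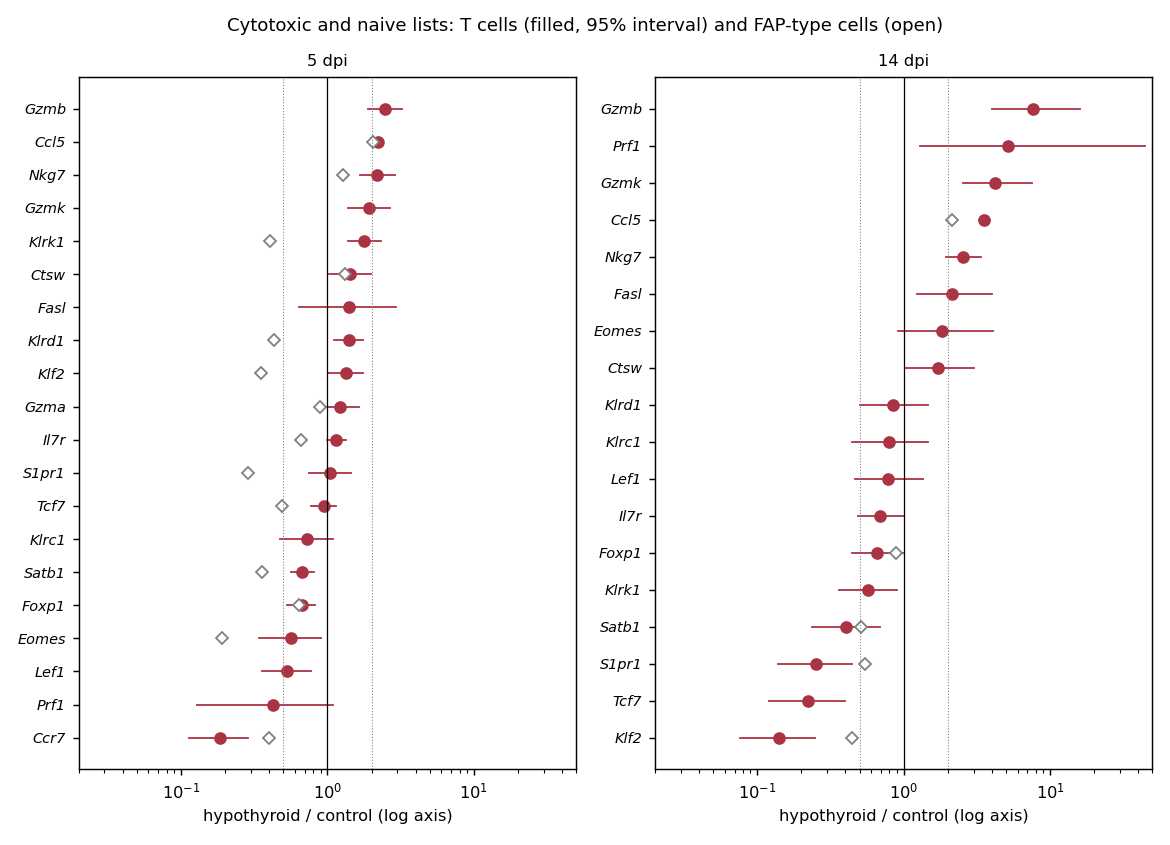
Points give the ratio of hypothyroid to control T cells (log axis) for cytotoxic and naive list genes with at least 30 UMIs, at 5 dpi (left) and 14 dpi (right), with 95% exact intervals for counting error. Open diamonds give the ratio in FAP-type cells where these had enough UMIs, and dotted lines mark 2-fold. At 14 dpi *Gzmb* (7.59) is at the top and *Klf2* (0.140) at the bottom, whereas at 5 dpi *Klf2* is at 1.33.

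Within the CD8 type alone, 91 hypothyroid and 25 control cells at 14 dpi, the same genes lay on the same side of 1 as over all T cells. *Ccl5* was at 17282 CPM in hypothyroid and 4887 CPM in control cells of the CD8 type, a ratio of 3.54 (3.17 to 3.95), and *Gzmb* had a ratio of 4.77 (2.46 to 10.6). *Pdcd1* had a ratio of 1.91 (1.34 to 2.82), *Gzmk* of 2.90 (1.65 to 5.55), and *Nkg7* of 1.98 (1.46 to 2.75). *Klf2* was lower by a ratio of 0.0408 (0.0140 to 0.0990), from 6 against 32 UMIs, and *Tcf7* by 0.0311, from 2 against 14 UMIs, whereas *Tox* (1.16) and *Cxcr6* (1.05) had intervals that span 1.

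Interferon response genes are switched on when interferon receptors activate transcription factors such as those of the IRF family, which bind repeated GAAA elements in promoters. The letters GAAANNGAAA, on either strand and with overlaps allowed, were searched in the 200 bases before each start of the RefSeq annotation (GRCm38.p6, an older build than that of the files). They occurred in 716 of 27025 genes with a window (2.65%), and in 6 of 11 genes of the interferon list with a window (54.5%): *Bst2*, *Ifi203*, *Ifit1*, *Ifit3*, *Isg15*, and *Rsad2*. Windows of 3 of these genes, each described below by its levels in T cells, are shown 5′ to 3′ on the gene's strand with the matches in capitals. They lie at chr19:34640689-34640888 (plus strand) for *Ifit1*, chr19:34583329-34583528 (plus) for *Ifit3*, and chr4:156200819-156201018 (minus) for *Isg15*. A match of letters is a description and not a binding site.
Ifit1: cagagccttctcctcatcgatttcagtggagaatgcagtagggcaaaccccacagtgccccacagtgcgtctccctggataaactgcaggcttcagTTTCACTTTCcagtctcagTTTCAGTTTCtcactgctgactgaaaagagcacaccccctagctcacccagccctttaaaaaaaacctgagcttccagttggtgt
Ifit3: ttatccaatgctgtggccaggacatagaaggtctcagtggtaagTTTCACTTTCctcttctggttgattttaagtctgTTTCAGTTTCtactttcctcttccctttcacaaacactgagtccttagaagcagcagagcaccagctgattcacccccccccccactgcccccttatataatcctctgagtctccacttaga
Isg15: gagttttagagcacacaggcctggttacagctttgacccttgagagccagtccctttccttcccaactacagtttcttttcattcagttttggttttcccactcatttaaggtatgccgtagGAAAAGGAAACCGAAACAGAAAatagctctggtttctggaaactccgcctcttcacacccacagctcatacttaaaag

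*Ifit1* (chr19:34618271-34627409, GRCm39), which blocks translation of foreign RNA, was at 0, 654, and 382 CPM in control and 0, 997, and 1273 CPM in hypothyroid T cells. It was absent from both uninjured pools, and the ratio between diets was 1.53 at 5 dpi and 3.33 at 14 dpi (2.56 to 4.42). In FAP-type cells the ratios were 1.66 and 1.53. *Isg15* (chr4:156283912-156285253, GRCm39), which encodes a ubiquitin-like modifier, was at 30.1, 384, and 156 CPM in control and 0, 1096, and 461 CPM in hypothyroid T cells. It was highest at 5 dpi in both diets, with ratios of 2.85 (2.45 to 3.32) at 5 dpi and 2.95 (1.94 to 4.66) at 14 dpi, against 1.63 and 1.31 in FAP-type cells. *Ifit3* was at 497 and 138 CPM in control and 789.6 and 523 CPM in hypothyroid T cells at 5 and 14 dpi, and at 0 in both uninjured pools. Its ratio at 14 dpi was 3.80 (2.45 to 6.18).

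Further from the level in FAP-type cells stood *Isg20*, an RNA exonuclease gene, with a ratio at 14 dpi of 6.18 (2.91 to 15.7) in T cells and 0.978 in FAP-type cells, and *Zbp1*, a sensor of viral nucleic acid, with 3.85 (2.01 to 8.26) against 1.07. With all columns the 14 dpi ratios were 1.88 for *Ifit1*, 1.92 for *Isg15*, 2.51 for *Ifit3*, 2.72 for *Isg20*, and 2.03 for *Zbp1*. Summed over the list, the ratio at 14 dpi was 2.53 in T cells (2.27 to 2.82), 3.11 in NK-type cells, 1.16 in B-type cells, and 1.17 in FAP-type cells. The NK-type ratio came from only 9 hypothyroid and 13 control cells, and the B-type ratio from 5 and 20. At 5 dpi the sum was 4539.9 CPM for control and 7224 CPM for hypothyroid T cells, a ratio of 1.59 (1.51 to 1.68), against 1.47, 1.38, and 1.38 in the other types.

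**Figure D5:**
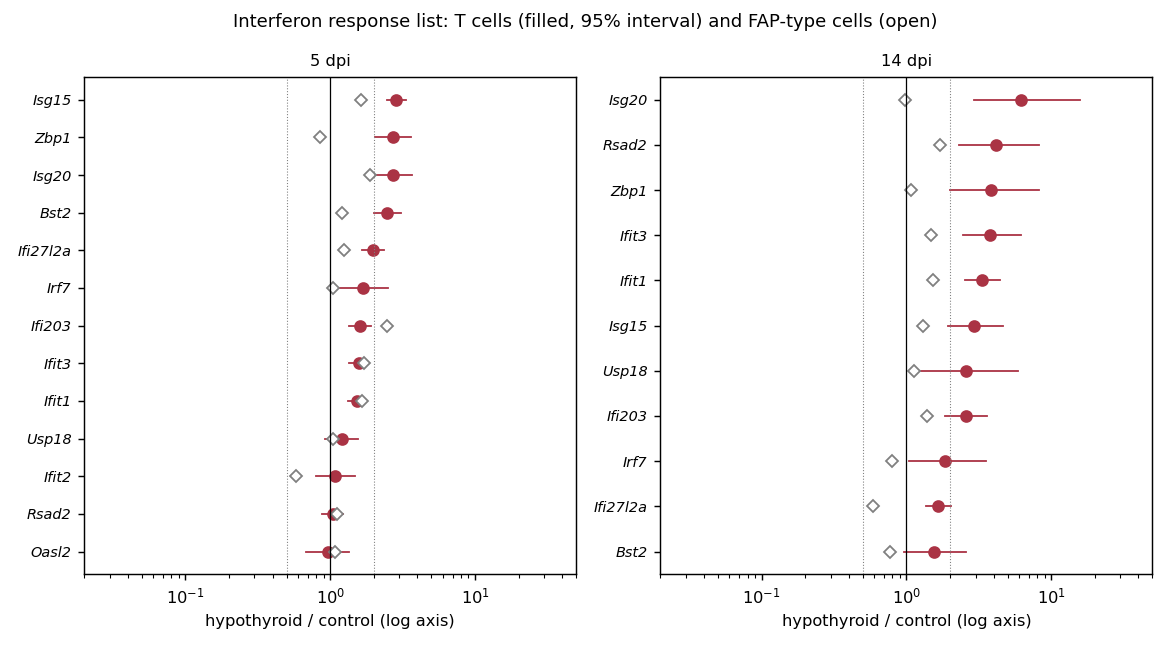
Ratios of hypothyroid to control (log axis) for interferon response genes with at least 30 UMIs in T cells (filled, 95% exact interval for counting error) and in FAP-type cells (open), at 5 dpi (left) and 14 dpi (right). At 14 dpi all plotted T cell points lie above 1 and above their FAP-type value, from *Bst2* (1.55) to *Isg20* (6.18), and at 5 dpi from *Oasl2* (0.963) to *Isg15* (2.85).

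Genes of the regulatory T cell list were higher in hypothyroid T cells at 14 dpi, but some of them rested on few cells. *Foxp3* was not analysed here. *Tnfrsf9* (4-1BB), a costimulatory receptor gene, was at 30.1, 141, and 125 CPM in control and 0, 108, and 388 CPM in hypothyroid T cells, and *Tnfrsf4* (OX40) at 45.2, 77.7, and 75.1 CPM in control and 0, 74.3, and 232 CPM in hypothyroid T cells. The ratios at 14 dpi were 3.10 (1.94 to 5.20) and 3.08 (1.69 to 6.17). A single cell held 12 of the 20 *Tnfrsf9* UMIs in control and 35 of the 169 in hypothyroid T cells. For *Tnfrsf4* a single cell held 5 of 12 and 19 of 101. The inhibitory receptor gene *Ctla4* was at 193 CPM in hypothyroid and 87.6 CPM in control T cells, a ratio of 2.20 (1.24 to 4.19). *Il2ra*, the high-affinity IL-2 receptor chain, had a ratio of 12.5 (3.32 to 105) from 68 against 2 UMIs, and a single cell held 49 of the 68. *Il1rl1*, the IL-33 receptor, had a ratio of 10.8 (2.86 to 91.4) from 59 against 2 UMIs, with 22 of the 59 in a single cell.

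The CD4 type of hypothyroid 14 dpi (11 cells) held several of these genes at higher levels than the other T cells. In those cells *Tnfrsf4* was at 1107 CPM, against 107 CPM in the other 110 T cells of the library, and *Il1rl1* at 498 against 83.8 CPM. *Tnfsf8* (CD30 ligand) was at 757 against 5.24 CPM, and *Ccl5* at 1255 against 15432 CPM. *Il2ra* had 52 UMIs in these cells, 49 of them in a single cell. The 15 cells of the CD4 type of control 5 dpi also had *Tnfrsf4* (644 against 36.8 CPM) and *Ctla4* (254 against 41.7 CPM) above the other T cells. These cells were selected on *Cd4*, and the values are a description.

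At 5 dpi interferon response and cytotoxic list genes were among those at higher levels in hypothyroid T cells and gamma delta genes among those at lower levels. Of 5464 genes with at least 30 UMIs over both pools, 3.42% were at least 2-fold higher and 15.3% at least 2-fold lower in hypothyroid T cells, with a median log2 ratio of −0.32. These shares were 1.80% and 1.84% with all columns. At least 2-fold higher were 4 of 14 interferon response genes (*Bst2*, *Isg15*, *Isg20*, and *Zbp1*; list median 0.67) and 3 of 12 cytotoxic genes (*Ccl5*, *Gzmb*, and *Nkg7*; 0.51). The cytotoxic gene *Prf1* was at least 2-fold lower, with a ratio of 0.423 and an interval that spans 1. At least 2-fold lower were 3 of 5 gamma delta and type 17 genes (*Trdc*, *Trgc1*, and *Blk*; median −1.15). Of 9 trafficking receptor genes 2 were at least 2-fold lower (*Cxcr4* and *Itgb7*), a share near that of all genes, and *Cxcr4* was at 1.44 relative to FAP-type cells. Of 9 naive and central memory genes only *Ccr7* was past 2-fold.

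The gamma delta genes were highest in control 5 dpi T cells. *Trdc* was at 15.1, 288, and 31.3 CPM in control and 92.4, 130.1, and 34.4 CPM in hypothyroid T cells, a ratio at 5 dpi of 0.452 (0.318 to 0.628). In FAP-type cells the 5 dpi ratio of *Trdc* was 0.113, and relative to it the T cell ratio was 3.98, so the direction turned. *Trgc1*, the gamma chain constant gene, had a ratio of 0.324 (0.134 to 0.675), and the kinase gene *Blk* one of 0.296 (0.115 to 0.647). With all columns the ratios of *Trdc*, *Trgc1*, and *Blk* were 0.757, 0.836, and 0.619.

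The 56 cells with *Trdc* in control 5 dpi shared further transcripts that their selection did not use. *Scart1*, a scavenger receptor gene of gamma delta T cells, was found in 41.1% of them and in 0.568% of the other 176 T cells (195 against 1.47 CPM). *Blk* was at 267 against 17.6 CPM, *Trgc1* at 278 against 19.1 CPM, and the transcription factor gene *Maf* at 735 against 123 CPM. The cytokine gene *Tnf* was at 123 against 10.3 CPM, the growth factor receptor gene *Igf1r* at 920.2 against 135 CPM, and *Ramp1*, part of the receptor for a nerve peptide, at 324 against 54.4 CPM. *Cd8b1* and *Gzmk* were at 0 in these cells. Their median depth was 2517 UMIs, against 2772.5 in the others.

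Among cytokines and chemokines, *Ifng*, the gene of interferon gamma, was at 0, 10.3, and 31.3 CPM in control and 0, 111, and 55.0 CPM in hypothyroid T cells. The ratio at 5 dpi was 10.8 (5.12 to 25.6), from 36 against 9 UMIs, with 11 of the 36 in a single cell, and it was 2.69 with all columns and 1.29 in cells free of genes of other cell types. *Ccl4*, a chemokine gene, was at 0, 46.9, and 18.8 CPM in control and 0, 279, and 52.7 CPM in hypothyroid T cells, a ratio at 5 dpi of 5.95 (4.07 to 8.83), which was below the FAP-type ratio of 7.03. *Xcl1*, a chemokine gene that attracts dendritic cells, was at 68.6 and 127 CPM at 5 dpi, and had 1 UMI in each diet at 14 dpi.

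*Gzmb* and *Ccr7* at 5 dpi moved with a small set of T cells rich in antigen presentation genes. In control 5 dpi, 19 of 232 T cells (8.19%) held more than 2 UMIs of *Cd74*, against 3 of 77 in hypothyroid 5 dpi (3.90%). These 19 cells had a median of 7937 UMIs, against 2522 in the others, and held *H2-Aa* at 6111 against 7.04 CPM, *Il1b* at 1708 against 8.45 CPM, and *Ccl22* at 291 against 0 CPM, genes of dendritic cells and monocytes. Without such cells the ratio of *Ccr7* was 0.813 instead of 0.185 (0.113 to 0.288), and that of *Gzmb* 1.31 instead of 2.49 (1.91 to 3.24). *Ccl5*, with a ratio of 2.21 (2.04 to 2.41), and *Nkg7*, with 2.19 (1.66 to 2.89), were at 2.41 and 1.86 without them, and at 1.11 and 1.24 with all columns.

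*Ikzf2*, which encodes the transcription factor Helios, was lower in hypothyroid T cells at 5 dpi. It was at 196, 923, and 150.1 CPM in control and 0, 319, and 296 CPM in hypothyroid T cells, with a ratio of 0.345 (0.279 to 0.425) at 5 dpi and 1.97 (1.27 to 3.19) at 14 dpi. At 5 dpi *Ikzf2* was also lower in hypothyroid NK-type cells, at 339 against 737 CPM in control. In cells that are not T cells it was at 23.5 against 176 CPM, whereas 12.8% against 7.51% of FAP-type cells held it. *Ikzf2* was among 12 list genes whose intervals lay on opposite sides of 1 on the 2 days. Among the others, *Cxcr6* (0.462 at 5 dpi), *Icos*, *Il2ra*, and *Itga4* were lower at 5 dpi and higher at 14 dpi in hypothyroid T cells, and *Klf2*, *Klrk1*, *Crip1*, *Lgals3*, *Ly6c2*, and *Zfp36* were higher at 5 dpi and lower at 14 dpi. The difference between days was not tested.

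The T cells were also compared between days within each diet. Of 5153 genes in control T cells, 6.38% were at least 2-fold higher and 22.1% at least 2-fold lower at 14 than at 5 dpi, with a median log2 ratio of −0.32. Of 3835 genes in hypothyroid T cells, 10.4% were at least 2-fold higher and 6.34% at least 2-fold lower, with a median of 0.11. With all columns the shares were 5.81% and 13.7% in control and 6.28% and 12.6% in hypothyroid T cells. The 2 comparisons share no library, but each 5 and 14 dpi library also enters the comparison of diets.

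Naive and central memory genes were lower at 14 dpi in both diets, with 5 of 9 at least 2-fold lower in control (median −1.15) and 7 of 9 in hypothyroid T cells (−1.88), and 0 at least 2-fold higher in either. *Tcf7* had a ratio of 14 to 5 dpi of 0.435 in control and 0.102 in hypothyroid T cells. *Klf2* was at 0.169 times its 5 dpi level in hypothyroid T cells, while in control it went from 184 to 294 CPM. *Pdcd1* had ratios of 3.50 in control and 9.79 (6.62 to 15.1) in hypothyroid T cells, and *Ccl5* of 2.69 and 4.33.

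Interferon response genes were lower at 14 dpi, with 8 of 14 at least 2-fold lower in control (median −1.21) and 5 of 14 in hypothyroid T cells (−0.51). *Rsad2*, an antiviral enzyme gene, was at 615 and 75.1 CPM in control and 638 and 314 CPM in hypothyroid T cells at 5 and 14 dpi. In hypothyroid T cells *Ifi27l2a*, *Ifit1*, *Irf7*, *Ifi203*, and *Isg20* were above their 5 dpi level at 14 dpi, by ratios of 1.02 to 1.75. In control T cells *Ifi27l2a* was at least 2-fold higher at 14 dpi, at 769 against 367 CPM.

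Proliferation genes were lower at 14 dpi as well, with 14 of 17 at least 2-fold lower in control (median −1.49) and 5 of 9 in hypothyroid T cells (−1.01). *Mki67*, a gene of dividing cells, was at 0, 135, and 0 CPM in control and 0, 161, and 55.0 CPM in hypothyroid T cells. *Top2a*, needed to separate chromosomes, had 39 against 3 UMIs at 14 dpi in hypothyroid and control T cells, a ratio of 4.76 (1.51 to 24.1). Cells with at least 3 proliferation genes made up 12.7% and 2% of control and 10.7% and 8.93% of hypothyroid T cells at 5 and 14 dpi when thinned to 1000 UMIs. As deposited, the shares were 37.9%, 27.8%, 23.4%, and 38.8% in the same order, against 62.5%, 4.27%, 56.8%, and 12.6% of FAP-type cells.

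Genes of the activation and tissue residence list were mixed over time, with 7 of 16 at least 2-fold higher and 3 at least 2-fold lower at 14 dpi in each diet. *S100a4*, a calcium-binding protein gene, was at 60.2, 434, and 1076 CPM in control and 0, 356, and 1378 CPM in hypothyroid T cells, and *Lgals1*, the galectin-1 gene, at 166, 344, and 1226 CPM and 46.2, 526, and 1630.3 CPM. Both were highest at 14 dpi. *Cd69* went the other way in both diets, from 753 to 87.6 CPM in control and from 762 to 183 CPM in hypothyroid T cells, and so did *Rgs1*, from 676 to 138 CPM and from 929 to 389.8 CPM.

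Of 18 T cell receptor and signalling genes, which include the 3 *Cd3* genes that selected the cells, 1 was at least 2-fold higher in hypothyroid T cells at 5 dpi (*Cd2*) and 3 at 14 dpi (*Cd3e*, *Cd3g*, and *Zap70*). The selection used *Cd3e* and *Cd3g*, so their ratios are no result, and only *Zap70* remains at 14 dpi. Over all compared genes, 3.42% were at least 2-fold higher at 5 dpi and 8.97% at 14 dpi. *Cd3e* (chr9:44910038-44920925), on which the cells were selected, was at 286, 353, and 469 CPM in control and 185, 350 (349.9), and 963 CPM in hypothyroid T cells. *Cd8a* (chr6:71350411-71356157) was at 120 (120.5), 98.3, and 194 CPM in control and 46.2, 186, and 431 CPM in hypothyroid T cells, with ratios of 1.89 at 5 dpi and 2.22 (1.51 to 3.36) at 14 dpi, and of 1.14 and 1.23 with all columns. *Cd4* was low in all libraries, between 26.3 and 92.4 CPM.

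Transcripts of thyroid hormone signalling were scarce in T cells. The receptor gene *Thra* had 1, 8, and 1 UMIs in control and 0, 1, and 0 in hypothyroid T cells, *Thrb* had 1 UMI in each 5 dpi library and 0 elsewhere, and *Dio2*, which activates the hormone, had 1 UMI in control 5 dpi. Of 6 genes of the list with enough UMIs at 5 dpi, 1 was at least 2-fold lower (*Ncoa3*), and of 3 at 14 dpi 1 was (*Med1*), with 0 higher on either day. Over all compared genes, 15.3% were at least 2-fold lower and 3.42% higher at 5 dpi, and 4.83% and 8.97% at 14 dpi. With so few genes, these counts give no direction for the list. *Klf9*, a target of the hormone receptor, was at 0, 24, and 131 CPM in control and 139, 15.5, and 9.17 CPM in hypothyroid T cells, from 3 UMIs in the uninjured hypothyroid pool and 21 in control 14 dpi.

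The genes with the largest ratios by the end of the interval nearest 1 were partly shared with other cells of the same library. At 5 dpi they included *H2ac24* (109), *mt-Nd4l* (20.3), *Gm10076* (13.1), and *Rpl35* (6.18), whose ratios in cells that are not T cells were 26.8, 13.9, 17.3, and 5.37. The lowest at 5 dpi were the muscle genes *Pvalb*, *Acta1*, and *Myl1*, with *Slpi* and *Lars2*. At 14 dpi *Gzmb*, *Ccl5*, *Isg20*, *Plac8*, and *Ifit1* led in T cells, with ratios of 1.08, 2.52, 1.03, 0.887, and 1.62 in cells that are not T cells. The lowest at 14 dpi were the 4 hemoglobin genes of the control library and *Selp*, whose 136 UMIs in control were all in a single cell.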

How the data were processed

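Single-cell RNA libraries of TAM were made from 6 pools of 3 mice. Per the labels and the study's methods, the authors processed reads in Partek Flow with the Cell Ranger aligner on mm39 (GENCODE M30 annotation), filtered cells and genes, and deposited 6 tables of log2(CPM + 1) values per cell for 12436 genes. Each table's columns were split into runs of alphabetically ordered barcodes. The first runs (11207 cells) were used as the labelled groups, and 9062 columns of later runs entered only the alternative with all columns. Because 1 UMI is a fixed value within a cell, UMI counts were recovered from the deposited log2 values, with the commonest nonzero value of each cell set to 1 UMI. Of 39334018 values, 99.9% were whole within 0.05 UMI.

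UMIs were summed over the T cells of each library. Ratios of 2 pools carry exact binomial intervals and ratios of shares exact intervals, at 95%, for counting error only. With 1 library per group no test was made. Genes with at least 30 UMIs over both pools were compared, and 2-fold was the limit for calling a gene higher or lower. The T cells and the gene lists were chosen with earlier results of these data known. Named genes are the genes of those lists (257 of 290 matched, 3 by synonym) and, in each comparison with at least 20 T cells a pool, the 5 genes each way with the largest ratio by the interval's end nearest 1, provided that the higher pool held 100 UMIs or more. Genes named for cells with *Trdc*, *Cd4*, or *Cd74* that are in no list were chosen after their values were seen. *Foxp3*, *Il17a*, *Cd40lg*, *Tigit*, and other list genes without a match were not analysed here. A few genes are counted in their lists but not reported here by name or in the plots. Gene positions are those of the tables (GRCm39), with the end given as the last base.

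To compare shares across depths, cells were thinned to 1000 UMIs, either before the T cells were selected (their share of the library, and the thinned ratios of genes) or after (shares of T cells with a transcript), and shallower cells were left out: 3, 4, 2, and 9 T cells of control 5 and 14 dpi and hypothyroid 5 and 14 dpi, and 0 of the uninjured libraries. No doublet caller was run. Selection left out cells with *Cd79a*, *Csf1r*, or *Pdgfra*, and the deepest 5% of T cells were left out in an alternative. T cells reached 26145 UMIs, above the upper limit that the study's methods state for cells. The scripts were tested on simulated data. Alternatives were another value for 1 UMI, all columns, stricter and looser *Cd3* rules, thinning, removal of cells with NK genes, with genes of other cell types, or with most UMIs, equal weights for cells, and a higher UMI minimum. Added after the data were seen were removal of T cells with more than 2 UMIs of *Cd74*, ratios relative to FAP-type cells, and totals without muscle fibre and red blood cell genes. Python 3.11.15, numpy 2.4.6, scipy 1.17.1, pandas 2.3.3, and matplotlib 3.10.9 were used.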

Additional observations from a re-analysis of the deposited data

Results flagged for a closer look

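The T cell share in hypothyroid relative to control muscle lay on opposite sides of 1 on the injury days, at 0.374 at 5 dpi and 4.47 at 14 dpi. With 1 library per diet and day the difference between days was not tested. *Prf1* in T cells also lay on opposite sides, at 0.423 at 5 dpi (interval 0.129 to 1.09, which spans 1; 5 against 32 UMIs) and 5.13 at 14 dpi (28 against 2 UMIs), and this difference was not tested either.

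Columns after the first run of a file, which entered only the comparisons with all columns, held T cells as well. In the uninjured control file they made up 8.07% of the later run (93 of 1152 cells, which repeat cells of hypothyroid 14 dpi). In the uninjured hypothyroid file they made up 9.09% (48 of 528 cells, which repeat cells of control 5 dpi). The later run of the control 5 dpi file held 1.32%, the 2 later runs of the control 14 dpi file 0.868% and 5.09%, and the 2 later runs of the hypothyroid 5 dpi file 1.33% and 9.04%. None of these last 5 runs repeated a cell of a first run, and which mice they came from is not given in the sources used here.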

How the results depend on the processing

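No paired analysis was possible because the labels carry no replicate numbers and each group is 1 library. With 1 library of pooled mice per group, no depth of sequencing measures the spread between mice, and the uninjured pools (15 and 4 T cells) allow no comparison of genes.

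Hypothyroid over control, the T cell share at 5 dpi was 0.986 with all columns and 0.537 with all 3 *Cd3* genes, and at 14 dpi 3.02, 9.68, and, thinned before selection, 6.39. The CD8 type share at 5 dpi was 1.05 with all columns and 2.77 thinned before selection, and the cytotoxic share at 14 dpi 1.36 and 1.26. Genes at least 2-fold higher and lower at 5 dpi (187 and 835) numbered 123 and 126 with all columns, 67 and 138 thinned, 96 and 245 in T cells with no UMI of 7 genes of other cell types, and 66 and 235 with at least 100 UMIs. Lower genes were 501 with all 3 *Cd3* genes and 379 relative to FAP-type cells. At 14 dpi (288 and 155) they numbered 579 and 307 with the smallest value as 1 UMI, 103 and 125 with all columns, so that lower genes outnumbered higher ones, 38 and 23 thinned, and 55 and 27 with at least 100 UMIs, with 100 lower for all 3 *Cd3* genes. In control, 14 over 5 dpi (329 and 1140), they numbered 54 and 125 thinned and 101 and 361 with at least 100 UMIs, and higher genes 586 with the smallest value, 204 with all 3 *Cd3* genes, and 606 relative to FAP-type cells. In hypothyroid muscle (399 and 243) they numbered 673 and 378 with the smallest value, 64 and 26 thinned, 34 and 95 with no UMI of other cell types, 115 and 65 with at least 100 UMIs, and 723 and 433 relative to FAP-type cells, and 368 and 739 with all columns, where lower genes again outnumbered higher ones. Thinning and the minimum of 100 UMIs compare fewer genes by construction, and the cause of the other shifts was not tested.

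Of 2947 alternative values of 266 gene ratios, 2443 stayed within the interval, 491 moved outside it, and 13 turned direction. A turn was counted only for genes at least 2-fold apart in the main comparison. Smaller ratios that crossed 1, such as that of *Cxcr6* at 14 dpi with all columns, are counted among the other values. Those that turned at 5 dpi were, relative to FAP-type cells, *Trdc* (3.98), *Ccl4* (0.847), *Cxcr4* (1.44), and *Gm10076* (0.708). Thinned, they were *Ly6a* (0.857), *Prf1* (1.5), *Egr1* (1.5), and *Dusp1* (4). *Prf1* was at 1.31 without NK genes and 1.07 with no UMI of other cell types, where *Dusp1* was at 1.37. At 14 dpi they were *Ly6c2* with all columns (1.0004) and *Stmn1* without the deepest 5% of T cells (0.762). No control T cell at 14 dpi was free of the 7 genes of other cell types, so that alternative gave no value there.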

Other observations

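T cells with *Pdcd1* were set beside the other T cells of the same library, first at 14 dpi. In hypothyroid muscle, 56.1% of the 98 cells with *Pdcd1* and 30.4% of the other 23 held *Gzmk*, and 53.1% against 34.8% held *Tox*. *Tcf7* was found in 5.10% of the cells with *Pdcd1* and 17.4% of the others. In control muscle, with 25 and 29 cells, *Gzmk* was found in 28% against 10.3% and *Tcf7* in 16% against 44.8%. At 5 dpi *Tcf7* went the other way in hypothyroid muscle, with 84.2% of 19 cells with *Pdcd1* against 69.0% of the other 58. In control muscle at 5 dpi it was found in 59.3% of 59 against 65.3% of 173 cells. *Gzmk* was found in 36.8% against 32.8% of hypothyroid and 18.6% against 13.9% of control T cells at 5 dpi. Cells with *Pdcd1* were selected on a transcript that deeper cells show more often, and these shares are given as deposited.

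The CD8 type at 5 dpi, 43 hypothyroid and 73 control cells, held *Gzmb* at 547 and 85.6 CPM, a ratio of 6.40 (4.23 to 9.95). A single cell held 48 of the 112 *Gzmb* UMIs of all T cells of the hypothyroid library, and over all T cells the ratio of *Gzmb* was 1.31 without cells with more than 2 UMIs of *Cd74*. In the CD8 type *Isg15* had a ratio of 2.82 and *Pdcd1* of 1.09. In hypothyroid T cells the largest ratios of 14 to 5 dpi, by the interval's end nearest 1, were those of the muscle gene *Ckm* (34.2), *Rps27rt* (33.9), *Myl1* (23.2), *Acta1* (21.8), and *Mylpf* (13.6). In cells of these libraries that are not T cells, the ratios were 21.8, 14.7, 16.3, 13.9, and 11.6. *Il1b* was at 0.00544 times its 5 dpi level in T cells and at 0.385 times in cells that are not T cells.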
